A study of Mus musculus with 4 samples.

Results

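The CMTM genes (CKLF-like MARVEL transmembrane domain containing) encode small membrane proteins that cross the membrane several times through a domain named MARVEL, and the family is named after its founding gene, Cklf, chemokine-like factor. The 9 mouse members Cmtm1, Cmtm2a, Cmtm2b, Cmtm3, Cmtm4, Cmtm5, Cmtm6, Cmtm7 and Cmtm8 were taken by gene symbol from the 19445 genes measured in spermatocytes at pachytene, a stage of meiotic prophase in which paired homologous chromosomes are held together along their length. The family was chosen by the readout itself, because Cmtm1 was among the genes of smallest p with lower values in Tcfl5+/- cells. Differences between the genotypes are therefore given for the members as a description, without a test. Cklf is not a member by that choice and is described beside them.

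Cells came from testes of adult C57BL/6 mice of the genotypes Tcfl5+/- (heterozygote, 2 libraries) and Tcfl5+/+ (wild type, 2 libraries). Tcfl5 is a germ cell gene for a transcription factor of the basic helix-loop-helix class, and the comparison asks how the loss of 1 copy affects the RNA of these cells. The sources used here give neither the part of the gene that the disrupted allele lacks nor whether each library was made from its own animals. The p-values of the fit over all genes therefore measure only the spread between these libraries, which may be technical. Polyadenylated RNA was read as single ends of 50 bases. Levels are in FPKM, a unit that divides the reads of a gene by transcript length and by the mapped reads of the library.

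Proteins with a MARVEL domain sit in membranes and vesicles and take part in the sorting, recycling and surface display of other membrane proteins. In mice Cmtm2a and Cmtm2b are known as testis genes whose combined loss disturbs the sperm surface protein ADAM3, and in humans CMTM1 is most abundant in testis. Outside the testis the family is known for human CMTM6, which keeps the immune checkpoint ligand PD-L1 at the cell surface.

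Of the 9 members, 5 lie side by side with Cklf on chromosome 8, 3 on chromosome 9 and 1 on chromosome 14 (build GRCm38, coordinates of the deposited tables). On chromosome 8 the order by coordinate is Cklf (104250861 to 104264936, + strand), Cmtm2a (104281042 to 104293181, - strand), Cmtm1 (104293542 to 104310145, - strand), Cmtm2b (104322204 to 104330764, + strand), Cmtm3 (104339383 to 104347672, + strand) and Cmtm4 (104348191 to 104395807, - strand). Cmtm1 ends 360 bases before Cmtm2a begins on the same strand, and 12058 bases separate Cmtm1 from Cmtm2b. Cmtm3 and Cmtm4 are 518 bases apart on opposite strands.

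The sequence upstream of Cmtm1 is shown because this member had the lowest ratio of Tcfl5+/- to Tcfl5+/+ cells among the 6 members with a mean of at least 0.5 FPKM. It is the 250 bases before the gene start that RefSeq gives on GRCm38.p6, chr8:104310146-104310395 on the - strand, with capitals at each CANNTG, the core letters of the E-box that helix-loop-helix factors recognise.
Cmtm1 promoter: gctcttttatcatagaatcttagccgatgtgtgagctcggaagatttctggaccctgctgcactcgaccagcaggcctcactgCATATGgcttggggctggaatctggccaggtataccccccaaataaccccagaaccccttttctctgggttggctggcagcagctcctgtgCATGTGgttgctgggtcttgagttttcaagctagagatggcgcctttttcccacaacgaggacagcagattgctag

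Both strands were searched for CANNTG, for its special case CACGTG, for AACNG, and for the cAMP response element TGACGTCA. The letters CANNTG occurred at 2 places in the Cmtm1 window, starting at -167 and -76 from the gene start, and in 66.2% of the 32851 RefSeq promoters of the same length. In the windows of Cmtm2a, Cmtm2b, Cmtm5 and Cmtm6 it was not found, while Cmtm7 held 2 and Cmtm3, Cmtm4 and Cmtm8 held 1 each. The letters CACGTG, present in 6.0% of all promoters, and TGACGTCA, present in 1.5%, were in none of the windows of the 9 members or of Cklf. AACNG, the core letters of MYB sites, was found in the windows of Cmtm2a, Cmtm2b, Cmtm6 and Cmtm7 among the members and in 74.2% of all promoters. A match of this kind is a description of the letters and not a binding site.

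Cmtm2a and Cmtm2b are shown because they carry most of the family's RNA and resemble each other upstream of the gene start. Their upstream windows were identical at 242 of 253 aligned positions (95.7%). The Cmtm2b window lies at chr8:104321977-104322226 on the + strand. The RefSeq gene start used for it differs from the deposited start of 104322204, so the end of the window lies inside the gene by the deposited coordinates. Capitals mark the 8 bases without an equal partner in the Cmtm2a window.
Cmtm2b promoter: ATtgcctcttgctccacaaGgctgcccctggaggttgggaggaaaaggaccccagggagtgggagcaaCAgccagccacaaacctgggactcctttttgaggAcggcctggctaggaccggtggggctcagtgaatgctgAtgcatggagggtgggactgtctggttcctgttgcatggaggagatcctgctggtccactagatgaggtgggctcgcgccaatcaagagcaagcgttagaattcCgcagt

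The coding sequences of the pair had diverged further, with 343 identical positions of 645 aligned (53.2%) between the 507 bases of Cmtm2a and the 630 of Cmtm2b in GENCODE M21. This was not particular to the pair, since Cmtm4 and Cmtm6 had 54.1% by the same measure. The first 120 coding bases of Cmtm2a and Cmtm2b follow, with capitals at the 51 bases of each without an equal partner in the other stretch. Only these stretches were aligned with each other. The run of capitals that ends the Cmtm2b stretch lies past the end of the Cmtm2a stretch and was not compared with later Cmtm2a bases. The Cmtm2a stretch lies at chr8:104292937-104293056 on the - strand and the Cmtm2b stretch at chr8:104322355-104322474 on the + strand, both on GRCm38.
Cmtm2a coding start: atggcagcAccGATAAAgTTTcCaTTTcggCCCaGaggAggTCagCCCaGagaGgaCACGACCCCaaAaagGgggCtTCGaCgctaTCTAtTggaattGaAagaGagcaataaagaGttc
Cmtm2b coding start: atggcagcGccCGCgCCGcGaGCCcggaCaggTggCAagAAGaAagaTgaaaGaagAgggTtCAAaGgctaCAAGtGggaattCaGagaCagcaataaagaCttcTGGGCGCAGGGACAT

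Reads of 50 bases could be tied to these genes to different degrees. Of the 1032 different 50-base words in the Cmtm2a transcript model, 44 also occurred in the Cmtm2b model, and the Cmtm1 model shared none with either. However, 891 of the 1004 words of the Cmtm1 model (88.7%) occurred in Gm45711, which GENCODE M21 annotates as a gene from 104281347 to 104310081 on the same strand, across both Cmtm1 and Cmtm2a. Another Cmtm1 transcript of that annotation runs to 104292622, into Cmtm2a. In Cmtm1 transcripts, 318 words of the Cmtm2a model and 47 of the Cmtm2b model occurred. With both strands searched, 68 words of the Cmtm1 model and 23 of the Cmtm2a model occurred in Cklf transcripts. The deposited tables used 1 transcript for Cmtm1 and 1 for Cmtm2a, which do not overlap, and Gm45711 was not analysed here. How reads from RNA that runs through both genes were assigned was not tested, and the values of Cmtm1 are uncertain in that respect.

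The libraries were alike in the number of genes listed, with 18360 and 17954 in Tcfl5+/- replicates 1 and 2 and 18282 and 18015 in Tcfl5+/+ replicates 1 and 2. No total read count comes with FPKM, so the depth is unknown. Tcfl5 itself was lower in both heterozygote libraries, at 137 and 189 FPKM in Tcfl5+/- cells and 249 and 238 FPKM in Tcfl5+/+ cells. The 14 markers of pachytene spermatocytes were all measured, and their summed FPKM ranged between 7855 and 8142 in Tcfl5+/- libraries and between 7554 and 7730 in Tcfl5+/+ libraries. Ldhc and Ybx2 carried most of that sum. The other 12, Tcfl5 among them, summed to 1534 and 1689 FPKM in Tcfl5+/- libraries and to 1868 and 1789 FPKM in Tcfl5+/+ libraries. Of all 14, 5 were lower in both heterozygote libraries, the disrupted gene Tcfl5 included, and 1, Ybx2, was higher. Among all genes, 17.3% were lower and 20% higher in this way. The summed FPKM of 18 spermatid markers was 2950 and 2431 in Tcfl5+/- replicates 1 and 2 and 1995 and 1013 in Tcfl5+/+ replicates 1 and 2, with 6 of the 18 above both wild-type libraries in both heterozygote libraries and 0 below. Tnp1, Tnp2, Prm1 and Prm2, genes of the proteins that replace histones in spermatid chromatin, carried this difference, with sums of 2029 and 1709 FPKM in Tcfl5+/- libraries and 1038 and 438 FPKM in Tcfl5+/+ libraries. The other 14 summed to 921 and 721 FPKM in Tcfl5+/- libraries and 957 and 575 FPKM in Tcfl5+/+ libraries, which overlap. Of these 14, Tssk6 and Tekt1 were above both wild-type libraries in both heterozygote libraries, and 0 were below. Both divisions of the marker lists were chosen after the values were seen. Sertoli cell markers, 13 in number, summed to 897 and 326 FPKM in Tcfl5+/- replicates 1 and 2 and to 919 and 588 FPKM in Tcfl5+/+ replicates 1 and 2. All 8 markers of leukocytes, in which several CMTM proteins have been studied, had means under 1 FPKM. In bulk RNA, fewer cells of a type and less RNA per cell cannot be told apart.

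CMTM levels differed widely between the members, with Cmtm2a among the most abundant transcripts measured and Cmtm5 scarcely listed. Cmtm2a had 786 and 793 FPKM in Tcfl5+/- replicates 1 and 2, against 748 and 898 FPKM in Tcfl5+/+ replicates 1 and 2, and 45 of the 19445 genes had a higher mean. Cmtm2b followed with 474 and 421 FPKM in Tcfl5+/- cells and 450.0 and 527 FPKM in Tcfl5+/+ cells, with 109 genes above it. These genes are the family's main transcripts in spermatocytes: together with Cmtm1 they made up 98.7% and 99.0% of the summed FPKM of the 9 members in Tcfl5+/- libraries and 98.5% and 98.8% in Tcfl5+/+ libraries. The family sum was 1300 and 1247 FPKM in Tcfl5+/- libraries and 1268 and 1495 FPKM in Tcfl5+/+ libraries, so that the groups overlapped.

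**Figure D1:**
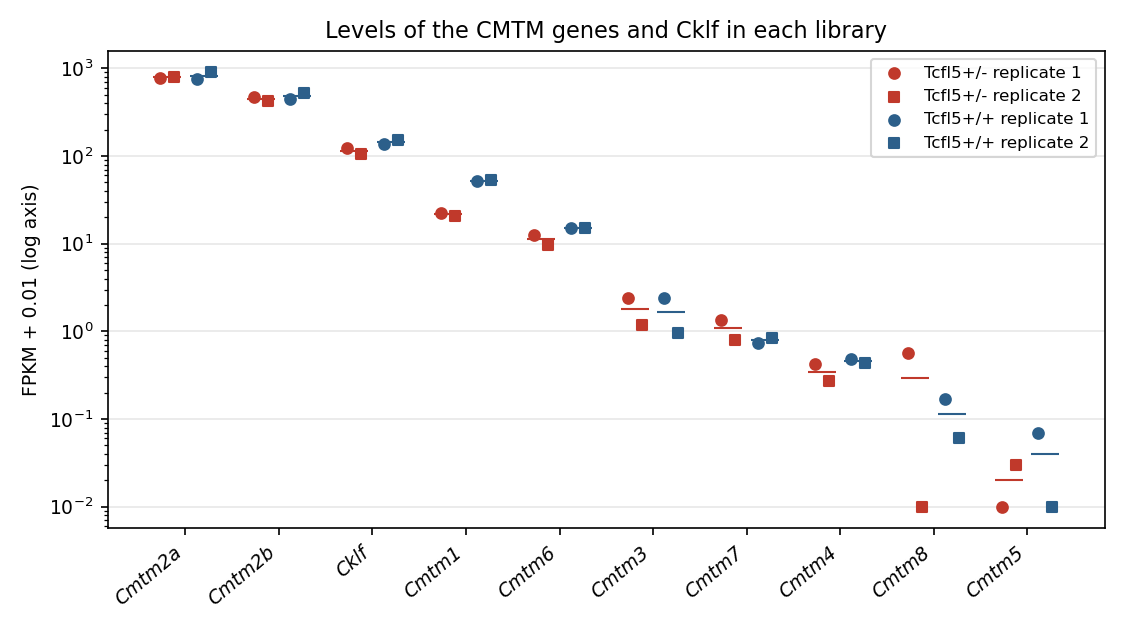
Levels of the 9 CMTM genes and Cklf in each library, as FPKM + 0.01 on a log axis, with Tcfl5+/- libraries in red left of Tcfl5+/+ libraries in blue. Points are libraries and short lines are genotype means. A point on the 0.01 level is a gene with no value listed, and the red and blue points of Cmtm1 are apart while those of Cmtm2a and Cmtm2b overlap.

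By mean FPKM over the 4 libraries the members ran in the order Cmtm2a, Cmtm2b, Cmtm1, Cmtm6, Cmtm3, Cmtm7, Cmtm4, Cmtm8 and Cmtm5. Neighbours in this order were apart over all 4 libraries, with 3 exceptions. Cmtm3 and Cmtm7 overlapped in Tcfl5+/- cells, as did Cmtm4 and Cmtm8, and Cmtm8 overlapped Cmtm5 in both genotypes. Of the members, only Cmtm1, Cmtm2a, Cmtm2b, Cmtm3, Cmtm6 and Cmtm7 reached a mean of 0.5 FPKM and entered the fit over 13333 genes.

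Cmtm1, the counterpart of the human testis gene, had 22.2 and 20.9 FPKM in Tcfl5+/- replicates 1 and 2, against 51.3 and 52.6 FPKM in Tcfl5+/+ replicates 1 and 2. The groups did not overlap, and the replicates of each genotype lay within 1.06 times of each other in Tcfl5+/- cells and at a ratio of 0.975 in Tcfl5+/+ cells. Mean levels were 21.6 ± 0.919 FPKM in Tcfl5+/- cells and 51.9 ± 0.933 FPKM in Tcfl5+/+ cells (SD, n = 2 each), a 2.40-fold lower level in Tcfl5+/- cells. Over the 4 pairings of a wild-type with a heterozygote library this fold ran between 2.31 and 2.51. On the log2(FPKM + 1) scale the difference was -1.23 with a standard error of 0.09. The sum of the 18 spermatid markers was higher in both heterozygote libraries through Tnp1, Tnp2, Prm1 and Prm2, while the sum of the other 14 overlapped. Of those 14, 2 were higher in both heterozygote libraries. The part of spermatids in the level of Cmtm1 was not tested.

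These values chose the family, and nothing is read from their size. Called at an adjusted p under 0.05 by limma-trend with Benjamini-Hochberg adjustment were 0 genes, 0% of 13333, while 1759 had an unadjusted p under 0.05, with 1017 higher and 742 lower in Tcfl5+/- cells. The same test called 65 genes after scaling to median ratios and 135 after quantile normalization. Both heterozygote libraries lay below both wild-type libraries for 3 of the 9 members (Cmtm1, Cmtm4 and Cmtm6), beside 17.3% of all 19445 genes, and above them for 0 of 9, beside 20% of all genes. Leaving out 1 library means that fewer library pairs have to differ. The number of members on one side, lower or higher, was then 5 without Tcfl5+/- replicate 1, beside 69.3% of all genes, and 6 without Tcfl5+/- replicate 2, beside 62.3%. It was 6 without Tcfl5+/+ replicate 1, beside 60.9% of all genes, and 6 without Tcfl5+/+ replicate 2, beside 70%. After quantile normalization of all 4 libraries it was 6, beside 37.4% of all genes. Lower after quantile normalization were Cmtm1, Cmtm2a, Cmtm2b, Cmtm4 and Cmtm6, and Cmtm7 was higher. Cmtm1, Cmtm4 and Cmtm6 were also lower without any 1 of the 4 libraries, which could not be otherwise for genes already lower in both heterozygote libraries. The median log2 difference was -0.09 over the 6 members in the fit and -0.02 over all 13333 genes. For the 6 members it was -0.23 without Tcfl5+/- replicate 1, -0.05 without Tcfl5+/- replicate 2, -0.21 without Tcfl5+/+ replicate 1 and -0.16 without Tcfl5+/+ replicate 2.

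Within a library, ratios between family genes do not depend on the scaling of that library. Cmtm1 stood at 2.83% and 2.64% of the Cmtm2a level in Tcfl5+/- replicates 1 and 2, against 6.85% and 5.86% in Tcfl5+/+ replicates 1 and 2. Relative to Cmtm2b it stood at 4.69% and 4.97% in Tcfl5+/- cells and at 11.4% and 9.98% in Tcfl5+/+ cells. The ratio of Cmtm2b to Cmtm2a overlapped between the genotypes, at 60.3% and 53.1% in Tcfl5+/- cells and 60.1% and 58.7% in Tcfl5+/+ cells. These ratios restate the Cmtm1 values that chose the family. Their log2 differences were -1.21 against Cmtm2a and -1.14 against Cmtm2b, and that of Cmtm2b to Cmtm2a was -0.07.

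**Figure D2:**
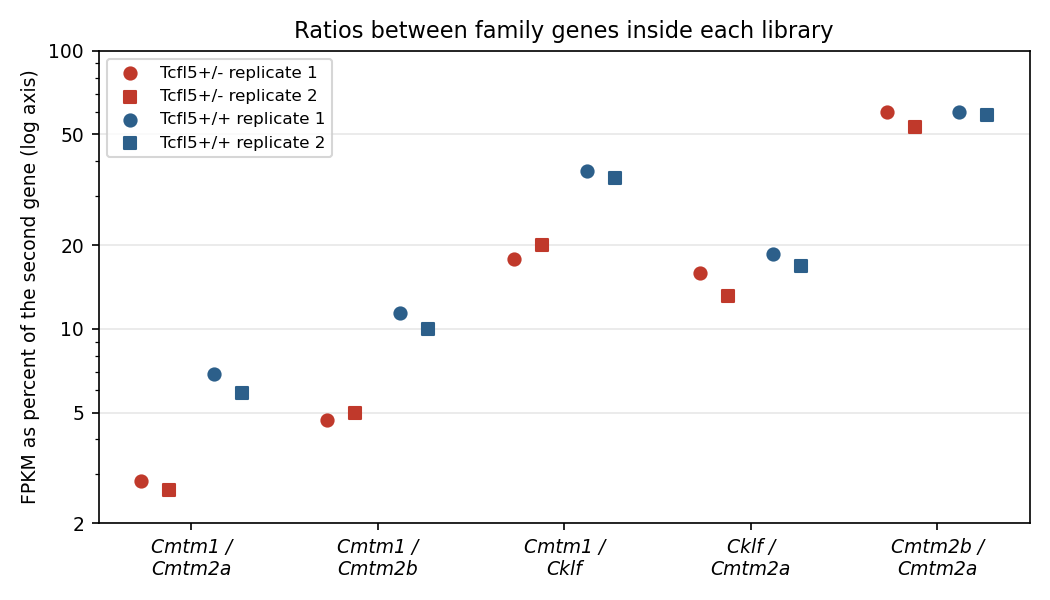
Ratios between family genes inside each library, as the FPKM of the first gene in percent of the second on a log axis, with Tcfl5+/- libraries in red left of Tcfl5+/+ libraries in blue. The 3 ratios with Cmtm1 on top and the ratio of Cklf to Cmtm2a are lower in both Tcfl5+/- libraries, and the ratio of Cmtm2b to Cmtm2a overlaps.

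Cmtm2a, the more abundant of the pair of testis genes, averaged 789 ± 4.86 FPKM in Tcfl5+/- cells and 823 ± 106 FPKM in Tcfl5+/+ cells (SD, n = 2 each). The 2 heterozygote values lay between the 2 wild-type values. Cmtm2b averaged 448 ± 37.6 FPKM in Tcfl5+/- cells and 488 ± 54.2 FPKM in Tcfl5+/+ cells (SD, n = 2 each), and its groups overlapped as well. The log2 differences were -0.05 for Cmtm2a and -0.12 for Cmtm2b, with standard errors of 0.10 and 0.11. After quantile normalization both genes were lower in both heterozygote libraries, with log2 differences of -0.15 for Cmtm2a and -0.25 for Cmtm2b.

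Cklf, which encodes a secreted chemokine-like protein in humans, had 125 and 104 FPKM in Tcfl5+/- replicates 1 and 2, against 139 and 151 FPKM in Tcfl5+/+ replicates 1 and 2. The groups did not overlap, and the log2 difference was -0.34 with a standard error of 0.11. Cmtm1 relative to Cklf stood at 17.9% and 20.1% in Tcfl5+/- cells and at 37.0% and 34.9% in Tcfl5+/+ cells. This ratio was lower in both heterozygote libraries, by -0.92 on the log2 scale. The ratio of Cklf to Cmtm2a was lower in both as well, at 15.8% and 13.2% in Tcfl5+/- cells and 18.5% and 16.8% in Tcfl5+/+ cells.

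Around the chromosome 8 cluster, 8 other genes lie within 150 kb of a member, Cklf included. Tk2, a mitochondrial thymidine kinase, had 13.2 and 12.3 FPKM in Tcfl5+/- cells and 14.0 and 13.4 FPKM in Tcfl5+/+ cells. Terb1, which attaches meiotic telomeres to the nuclear envelope, had 27.5 and 28.8 FPKM in Tcfl5+/- cells and 29.3 and 33.6 FPKM in Tcfl5+/+ cells. With Cklf, these were the 3 neighbours lower in both heterozygote libraries, beside 17.3% of all genes, and 0 of the 8 were higher, beside 20%.

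Dync1li2, a light intermediate chain of cytoplasmic dynein, had 48.4 and 51.2 FPKM in Tcfl5+/- cells and 49.9 and 55.5 FPKM in Tcfl5+/+ cells. Nae1, a subunit of the enzyme that activates NEDD8, had 43.4 and 49.0 FPKM in Tcfl5+/- cells and 45.7 and 44.9 FPKM in Tcfl5+/+ cells. Both overlapped between the genotypes. Low and overlapping too were Cdh5, a cadherin of endothelial cells, with 1.2 and 0.51 FPKM in Tcfl5+/- cells and 0.71 and 0.58 FPKM in Tcfl5+/+ cells, and Bean1, with 2.19 and 1.42 FPKM in Tcfl5+/- cells and 2.05 and 1.38 FPKM in Tcfl5+/+ cells. Car7, a carbonic anhydrase, overlapped at 1.25 and 0.61 FPKM in Tcfl5+/- cells and 1.51 and 0.92 FPKM in Tcfl5+/+ cells. The log2 differences of the 8 neighbours ran between -0.34 and 0.15, beside -1.23 for Cmtm1.

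**Figure D3:**
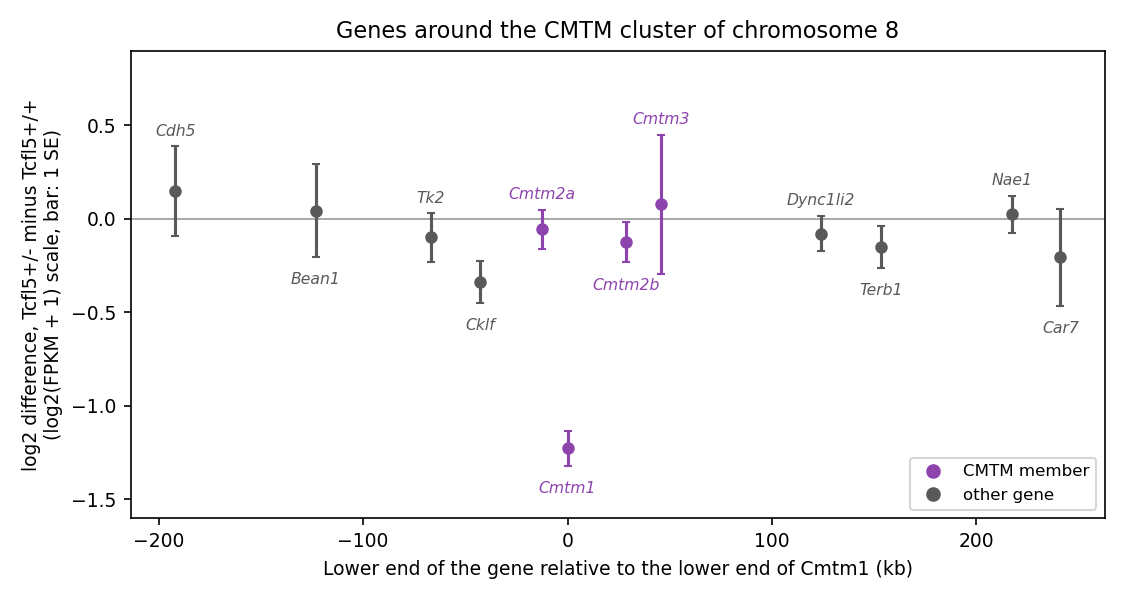
Log2 difference of Tcfl5+/- minus Tcfl5+/+ cells, on the log2(FPKM + 1) scale, for genes around the CMTM cluster of chromosome 8, against the distance of each gene's lower end from that of Cmtm1 in kb. Bars are 1 standard error of the fit. Cmtm1 lies at -1.23 and its neighbours between -0.34 and 0.15, while Cmtm4 is not drawn because its mean was under 0.5 FPKM.

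Cmtm6 (chromosome 9, 114731157 to 114749347, + strand), the mouse counterpart of the human PD-L1 regulator, had 12.7 and 9.69 FPKM in Tcfl5+/- replicates 1 and 2, against 15.0 and 15.1 FPKM in Tcfl5+/+ replicates 1 and 2. The groups did not overlap, and the heterozygote libraries differed from each other more than the wild-type libraries did. Means were 11.2 ± 2.11 FPKM in Tcfl5+/- cells and 15.1 ± 0.0636 FPKM in Tcfl5+/+ cells (SD, n = 2 each), with a log2 difference of -0.41 and a standard error of 0.17. Over the 4 pairings the level was between 1.19 and 1.56 times lower in Tcfl5+/- cells. Relative to Cmtm2a it stood at 1.61% and 1.22% in Tcfl5+/- cells and at 2.01% and 1.68% in Tcfl5+/+ cells.

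Cmtm7 and Cmtm8 follow Cmtm6 on chromosome 9 and were far lower. Cmtm7 (114756836 to 114781993, - strand), needed for B-1a cells in mice, had 1.35 and 0.79 FPKM in Tcfl5+/- cells and 0.73 and 0.84 FPKM in Tcfl5+/+ cells, and the groups overlapped. Cmtm8 (114789343 to 114844152, - strand), which in humans promotes internalisation of the receptor EGFR, had 0.56 FPKM in Tcfl5+/- replicate 1 and no listed value in Tcfl5+/- replicate 2, against 0.16 and 0.05 FPKM in Tcfl5+/+ replicates 1 and 2. Among genes of like length with 1 transcript, 0.05 FPKM was the value listed most often up to 0.5 FPKM in each library, so the lowest Cmtm8 values are near the least that these libraries list.

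Of the 5 other genes within 150 kb of these members, 3 were higher in both heterozygote libraries and 0 were lower. Among all genes, 20% were higher and 17.3% lower in this way. Dync1li1, another light intermediate chain of cytoplasmic dynein, lies next to Cmtm6 and had 5.97 and 6.19 FPKM in Tcfl5+/- cells and 4.2 and 4.39 FPKM in Tcfl5+/+ cells. Cnot10, a subunit of the CCR4-NOT deadenylase, had 38.8 and 41.4 FPKM in Tcfl5+/- cells and 37.4 and 34.3 FPKM in Tcfl5+/+ cells. Rps27, a ribosomal protein gene placed here by the deposited coordinates, had 550.3 and 483 FPKM in Tcfl5+/- cells and 452 and 441 FPKM in Tcfl5+/+ cells. Ribosomal protein genes have near-identical copies in the genome, so its value and its place here are uncertain, and the count of 3 includes it. The remaining neighbours overlapped between the genotypes and were lower in replicate 2 of both. Osbpl10, a lipid-binding protein gene, had 14.3 and 6.99 FPKM in Tcfl5+/- replicates 1 and 2 and 16.6 and 7.28 FPKM in Tcfl5+/+ replicates 1 and 2, and Gpd1l, a glycerol-3-phosphate dehydrogenase-like gene, had 1.35 and 0.33 FPKM in Tcfl5+/- cells and 1.06 and 0.66 FPKM in Tcfl5+/+ cells.

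Cmtm3, studied in humans for receptor endocytosis, had 2.40 and 1.16 FPKM in Tcfl5+/- replicates 1 and 2, against 2.38 and 0.95 FPKM in Tcfl5+/+ replicates 1 and 2. The genotypes overlapped, and within each genotype replicate 1 was the higher library, at 2.07 times replicate 2 in Tcfl5+/- cells and 2.51 times in Tcfl5+/+ cells. All 13 Sertoli cell markers and all 7 Leydig cell markers were also lower in replicate 2 of both genotypes, as were 16 of the 18 spermatid markers. So were 8 of 11 spermatogonia markers and 6 of 10 leptotene and zygotene markers. The number was 2 of 14 for pachytene, 1 of 6 for peritubular and endothelial and 0 of 8 for leukocyte markers. The share among all genes was not computed. The Leydig cell markers summed to 592 and 315 FPKM in Tcfl5+/- replicates 1 and 2 and to 548 and 343 FPKM in Tcfl5+/+ replicates 1 and 2. The part of any of these cell types in the level of Cmtm3 was not tested. Cmtm1 had a ratio of replicate 1 to replicate 2 of 1.06 in Tcfl5+/- cells and 0.975 in Tcfl5+/+ cells.

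**Figure D4:**
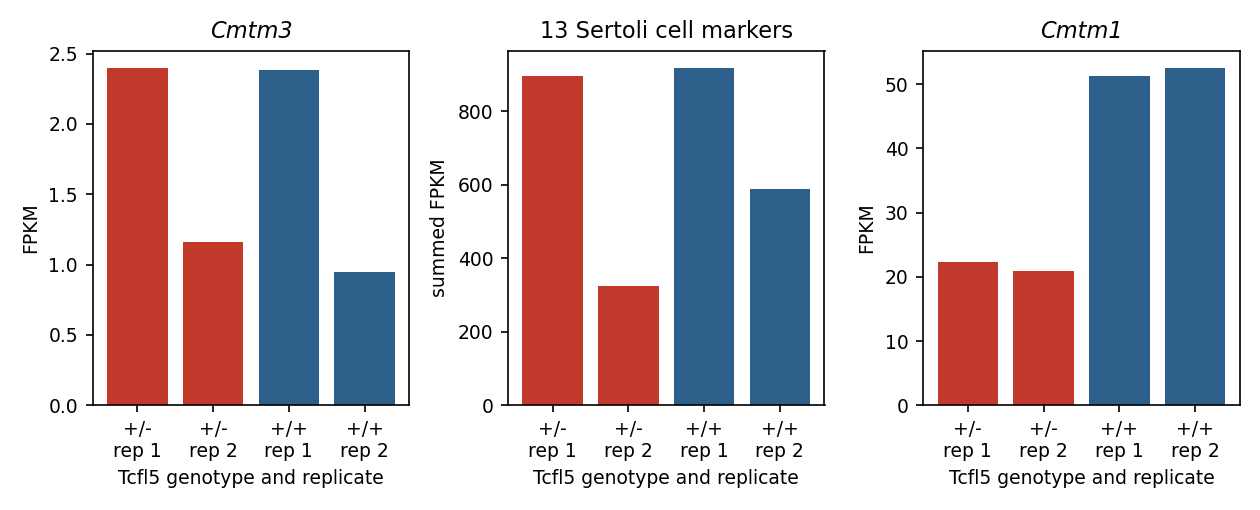
FPKM of Cmtm3, summed FPKM of 13 Sertoli cell markers and FPKM of Cmtm1 in each library, with the 2 Tcfl5+/- libraries in red left of the 2 Tcfl5+/+ libraries in blue. Bars are single libraries. Cmtm3 and the Sertoli cell markers are lower in replicate 2 of both genotypes, while Cmtm1 is lower in both Tcfl5+/- libraries.

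Cmtm4, related to Cmtm6 and with a similar role for PD-L1 in human cells, had 0.41 and 0.26 FPKM in Tcfl5+/- replicates 1 and 2, against 0.47 and 0.42 FPKM in Tcfl5+/+ replicates 1 and 2. Both heterozygote values were the lower ones, by as little as 0.41 against 0.42 FPKM. Cmtm5 (chromosome 14, 54936193 to 54943045, + strand), known from brain, had 0.02 FPKM in Tcfl5+/- replicate 2 and 0.06 FPKM in Tcfl5+/+ replicate 1 and was not listed in the other libraries. It overlaps Myh6 on the opposite strand by 1125 bases, and since no strand-keeping step is named in the protocol, the origin of reads from the overlap may be unclear.

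The chromosome 14 neighbourhood of Cmtm5 held 12 other genes within 150 kb, of which 1 was lower in both heterozygote libraries and 2 were higher. The shares among all genes were 17.3% lower and 20% higher. Pabpn1, a nuclear poly(A)-binding protein, had 144 and 137 FPKM in Tcfl5+/- cells and 118 and 106 FPKM in Tcfl5+/+ cells, a log2 difference of 0.32 with a standard error of 0.08. Il25, a cytokine, was higher at 0.27 and 0.16 FPKM in Tcfl5+/- cells, against 0.11 FPKM and no listed value in Tcfl5+/+ cells. Ppp1r3e, a phosphatase subunit, was lower at 0.43 and 0.21 FPKM in Tcfl5+/- cells, against 0.48 and 0.64 FPKM in Tcfl5+/+ cells.

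The other 9 genes of that neighbourhood overlapped between the genotypes. Ngdn had 22.7 and 20.5 FPKM in Tcfl5+/- cells and 23.5 and 20.7 FPKM in Tcfl5+/+ cells, and Homez, a homeobox gene, had 13.7 and 9.21 FPKM in Tcfl5+/- cells and 14.1 and 10.1 FPKM in Tcfl5+/+ cells. Bcl2l2, an inhibitor of apoptosis, had 6.44 and 3.53 FPKM in Tcfl5+/- cells and 5.65 and 4.65 FPKM in Tcfl5+/+ cells, and Rnf212b had 4.27 and 3.45 FPKM in Tcfl5+/- cells and 4.70 and 3.34 FPKM in Tcfl5+/+ cells. Slc22a17 had 2.49 and 1.18 FPKM in Tcfl5+/- cells and 3.09 and 1.91 FPKM in Tcfl5+/+ cells, and Zfhx2 had 1.03 and 0.84 FPKM in Tcfl5+/- cells and 1.03 and 1.07 FPKM in Tcfl5+/+ cells. Myh6 and Myh7, heart myosin genes, and Efs stayed low, with at most 0.18, 0.53 and 0.17 FPKM in any library.

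Genes reported as partners or clients of CMTM proteins were followed as a list of 16, of which 10 reached the fit and 0 were called. Their median log2 difference was -0.14 over those 10, beside -0.02 over all tested genes. Both heterozygote libraries were lower for 2 of the 16 genes, beside 17.3% of all genes, and higher for 1, beside 20%. Adam3, the sperm surface protein disturbed by loss of Cmtm2a and Cmtm2b in mice, had 301 and 295 FPKM in Tcfl5+/- replicates 1 and 2, against 464 and 540.1 FPKM in Tcfl5+/+ replicates 1 and 2. Its groups did not overlap, with a log2 difference of -0.75 and a standard error of 0.09. Cmtm2a and Cmtm2b overlapped between the genotypes in FPKM, but not after quantile normalization.

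Adam2, which pairs with other ADAM proteins on sperm, had 233 and 262 FPKM in Tcfl5+/- cells and 294 and 318 FPKM in Tcfl5+/+ cells. Adam1b had 86.6 and 79.5 FPKM in Tcfl5+/- cells and 76.5 and 88.3 FPKM in Tcfl5+/+ cells, and overlapped. Clgn, a testis chaperone of the endoplasmic reticulum needed for ADAM3 in mice, had 361 and 391 FPKM in Tcfl5+/- cells and 380 and 405 FPKM in Tcfl5+/+ cells. Adam2 was lower in both heterozygote libraries, while Adam1b and Clgn overlapped between the genotypes.

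Of the other genes that mice need for ADAM3, Tex101, a germ cell surface protein, had 183 and 202 FPKM in Tcfl5+/- cells and 285 and 201 FPKM in Tcfl5+/+ cells. Pdilt, a testis protein disulfide isomerase homologue, had 13.2 and 7.20 FPKM in Tcfl5+/- cells and 22.1 and 8.90 FPKM in Tcfl5+/+ cells. Calr3, a testis calreticulin, had 10.4 and 6.85 FPKM in Tcfl5+/- cells and 8.88 and 4.17 FPKM in Tcfl5+/+ cells. All 3 overlapped, and Pdilt and Calr3 were lower in replicate 2 of both genotypes.

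The somatic partners were low or near the limit of these libraries. Cd274, which encodes PD-L1, had 0.73 and 0.99 FPKM in Tcfl5+/- cells and 1.51 and 0.75 FPKM in Tcfl5+/+ cells, far below Cmtm6. Pdcd1lg2, the gene of the related ligand PD-L2, had at most 0.08 FPKM, and Egfr, a growth factor receptor, at most 0.41 FPKM in any library.

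Ccr4, which in humans was reported as a receptor of CKLF, had 0.36 and 0.44 FPKM in Tcfl5+/- cells and 0.31 and 0.27 FPKM in Tcfl5+/+ cells, and was the 1 list gene higher in both heterozygote libraries. Il17rc, a subunit of the interleukin 17 receptor, had at most 0.58 FPKM and Blnk, an adaptor of B cell receptor signalling, at most 0.11 FPKM in any library. Rab5a, a GTPase of early endosomes, had 6.78 and 4.24 FPKM in Tcfl5+/- cells and 7.97 and 4.24 FPKM in Tcfl5+/+ cells. Tfrc, the transferrin receptor, had 5.34 and 6.36 FPKM in Tcfl5+/- cells and 6.13 and 4.68 FPKM in Tcfl5+/+ cells. Rab5a and Tfrc overlapped between the genotypes.

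Among 19 measured genes of related membrane proteins, Cklf included, 9 reached the fit, 0 were called and 13 had a mean under 1 FPKM. Of the 19, 2 were lower in both heterozygote libraries, beside 17.3% of all genes, and 3 were higher, beside 20%. The median log2 difference of the 9 in the fit was -0.12. Apart from Cklf, Syngr4, a synaptogyrin, was the 1 gene of this list with a mean of at least 20 FPKM. It had 561 and 564 FPKM in Tcfl5+/- replicates 1 and 2, against 418 and 429 FPKM in Tcfl5+/+ replicates 1 and 2. The groups did not overlap, and the log2 difference was 0.41 with a standard error of 0.06.

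Genes whose values over the 4 libraries were most like those of a member were ranked by Euclidean distance between centred log2(FPKM + 1) values. The ranking was among 7525 other genes whose mean reached 5 FPKM, with provisional symbols of the kinds Gm, LOC and Rik left out. Nearest to Cmtm1 was Prkag2, a regulatory subunit of AMP-activated kinase, at a distance of 0.137, with 47.6 and 43.3 FPKM in Tcfl5+/- cells and 96.8 and 112 FPKM in Tcfl5+/+ cells. Pik3cd, a catalytic subunit of phosphoinositide 3-kinase, came next with 7.92 and 7.67 FPKM in Tcfl5+/- cells and 19.6 and 22.5 FPKM in Tcfl5+/+ cells. Cmtm1 had 7 genes within a distance of 0.2, beside 1160 for Cmtm2a, 689 for Cmtm2b and 119 for Cmtm6. The family was chosen through the difference of Cmtm1 in these same values, so its low number restates that choice.

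For Cmtm2a the nearest were Magi2 (0.0181) and Frmd8 (0.0282), both scaffold proteins, and for Cmtm2b Kcnmb4 (0.0352), a potassium channel subunit, and Ube2d2b (0.0355), a ubiquitin-conjugating enzyme. For Cmtm6 they were Foxm1, a transcription factor of the cell cycle, and Plk1, a mitotic kinase. Foxm1 had 30.7 and 24.5 FPKM in Tcfl5+/- cells and 36.1 and 37.1 FPKM in Tcfl5+/+ cells. Plk1 had 46.5 and 35.2 FPKM in Tcfl5+/- cells and 52.9 and 55.0 FPKM in Tcfl5+/+ cells. With 4 libraries, a small distance is met by many genes.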

How the data were processed

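The authors deposited 1 table of FPKM per library, with 2 decimals, per the file headers. HISAT2 2.0.4, Bowtie2 2.2.5, RSEM 1.2.12 and the build GRCm38 (mm10) are named in the submitters' processing notes, without their roles. FPKM is relative within a library, so a gain of abundant transcripts pulls other values down.

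The 4 tables were joined by gene identifier. In each, 1 row without a gene was left out, and 1593 genes without any value were dropped. A gene absent from a library was set to 0. The 13333 genes whose mean reached 0.5 FPKM entered limma-trend (limma 3.58.1, R 4.3.3) on log2(FPKM + 1), two-sided, with genotype as the only term, adjusted over all of them by Benjamini-Hochberg. The test was checked on simulated data. Fold changes on this scale understate those of low genes, and printed folds are ratios of FPKM.

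The members and lists were chosen with earlier results of these data known. Named were all members, Cklf, Tcfl5, the partner list (1 gene of it is not reported here), related genes of at least 20 FPKM, genes within 150 kb of a member, and the 2 genes most like each member of at least 5 FPKM. Promoters are from RefSeq, which held all members, and transcripts from GENCODE M21. Alternatives were another pseudocount, other filters, other scalings, the replicate number as a block and leaving out each library.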

Additional observations from a re-analysis of the deposited data

How the results depend on the processing

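Cmtm1, Cmtm4 and Cmtm6 were lower in both heterozygote libraries, or in the 1 left, under all 11 alternatives, and so was Cklf. Of these alternatives, only the other scalings, quantile normalization included, could have changed the order of the libraries. The pseudocount, the filters, the block and leaving out a library could not, so they say nothing about its stability. The log2 difference of Cmtm1 lay between -1.28 and -1.19. The number of genes called, 0 in the reported fit, was 65 with scaling to median ratios (18 higher, 47 lower) and 135 with quantile normalization (42 higher, 93 lower), and the cause was not tested. With the replicate number as a block it was 1213 (650 higher, 563 lower). The replicate differences of the genotypes correlated at 0.529 across genes, but 2 pairs do not establish that the numbers pair the libraries. Other settings, leaving out each library included, called 0 genes. Members on one side of the wild type numbered 3 as reported, 6 with quantile normalization (5 lower, 1 higher; 37.4% of all genes were on one side) and 5 to 6 when 1 library was left out, where 60.9% to 70% of all genes were. The median over the 6 members in the fit lay between -0.23 and -0.05 when 1 library was left out. The members added by quantile normalization were Cmtm2a and Cmtm2b, both lower, and Cmtm7, higher. Cmtm2a, Cmtm5 and Cmtm8 changed sign under 1 alternative each and Cmtm3 under 2.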
